A study of Homo sapiens with 4 samples.

Results

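JAK-STAT5 signalling was examined through chromatin accessibility at 10 genes, namely 4 that carry the signal (JAK2, STAT3, STAT5A and STAT5B, the pathway genes) and 6 that STAT5 is known to switch on (CISH, SOCS1, SOCS2, SOCS3, PIM1 and PIM2, the output genes). A region belonged to a gene when it overlapped the gene body or the 20 kb on either side in GENCODE on GRCh37 (hg19). Of 139872 consensus peaks in the count table, 51 met this rule, 14 at the pathway genes and 37 at the output genes. They lay at 9 of the 10 genes. No peak of the table used here fell at PIM2, which was therefore not analysed here.

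The assay was ATAC-seq, which reads out open chromatin through a transposase that cuts accessible DNA and tags it with adaptors. All cells were SEM, an established B cell precursor leukemia line with an MLL rearrangement, and all carried dCas9-KRAB, in which a nuclease-dead Cas9 brings the KRAB repressor domain to the site its guide names. In 2 libraries the cells also carried sgFLT3-DE-1, a guide RNA directed at a distal enhancer of FLT3, and in 2 control libraries they carried the non-target guide sgNT. The design names the specific and the genome-wide effect of this CRISPR interference as the question. Every cell thus came from 1 line, and neither the time after introduction of the guide nor whether a single clone was used is stated in the labels. The libraries are labelled as replicates 1 and 2 with each guide, and the labels do not say that these came from separate cultures. The p-values therefore reflect library-to-library spread alone, and that spread may be technical.

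FLT3 is a receptor tyrosine kinase of blood progenitors that can activate STAT5, and cytokine receptors reach STAT5 through Janus kinases such as JAK2. Phosphorylated STAT5 dimers enter the nucleus and bind a palindromic element with the core TTCNNNGAA. Among the genes they induce, CISH and the SOCS genes encode SH2-domain proteins that shut the receptors and kinases off again, whereas the PIM genes encode serine/threonine kinases that favour survival.

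The core TTCNNNGAA, whose fixed letters read the same on both strands, was looked for in the peaks, and the letters are described for 50 of the 51 members. It stood in 6 of the 50 peaks, 1 of 14 at pathway genes and 5 of 36 at output genes, against 7733 of all 139872 consensus peaks (5.53%). Longer peaks hold more letters, and the member peaks had a median length of 202 bp, against 179 bp over all peaks. In central windows of 300 bases cut to equal length, 7 of the 50 member peaks (14.0%) held the core, against 9.06% of all consensus peaks and 5.81% of the 21028 promoter peaks. A match is a description of the letters and not evidence of binding. The stretches below are shown because their peaks hold the core at or near an output gene. Only the CISH downstream peak is printed whole, and the PIM1 stretch is the first 300 of 319 bases. Each sequence is read 5′ to 3′ on the plus strand of GRCh37, with the core in capitals.
CISH promoter, first pair, chr3:50649206-50649338: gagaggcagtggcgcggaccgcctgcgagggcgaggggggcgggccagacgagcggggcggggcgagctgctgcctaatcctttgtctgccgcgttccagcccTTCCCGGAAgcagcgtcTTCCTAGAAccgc
CISH promoter, second pair, chr3:50649422-50649451: cagatTTCCAAGAActTTCCAGGAAaacgg
SOCS2 promoter, chr12:93964600-93964755: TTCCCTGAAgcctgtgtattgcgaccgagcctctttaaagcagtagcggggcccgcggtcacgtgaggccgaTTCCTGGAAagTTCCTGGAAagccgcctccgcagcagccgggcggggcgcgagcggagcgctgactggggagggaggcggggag
PIM1 downstream peak, chr6:37151073-37151372: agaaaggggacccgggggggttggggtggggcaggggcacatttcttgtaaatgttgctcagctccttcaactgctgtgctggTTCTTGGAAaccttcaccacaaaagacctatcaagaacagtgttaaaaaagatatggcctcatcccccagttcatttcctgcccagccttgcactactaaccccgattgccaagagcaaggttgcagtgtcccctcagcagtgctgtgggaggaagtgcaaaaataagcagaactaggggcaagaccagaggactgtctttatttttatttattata
CISH downstream peak, chr3:50638517-50638776: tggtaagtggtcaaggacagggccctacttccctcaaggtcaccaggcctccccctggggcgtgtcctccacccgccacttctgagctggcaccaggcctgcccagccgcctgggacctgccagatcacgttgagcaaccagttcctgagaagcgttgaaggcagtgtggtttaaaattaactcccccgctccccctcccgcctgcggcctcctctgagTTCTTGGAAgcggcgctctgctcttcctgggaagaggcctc

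The CISH promoter peak held 4 cores, with centres 108, 125, 226 and 237 bp upstream of the CISH start, and the 2 farther ones also lay in an untranslated exon of the divergent gene MAPKAPK3, which is why only 30 bases are shown there. Only 3 of 139872 consensus peaks held 4 or more. The SOCS2 promoter peak held 3 cores, centred 152, 80 and 69 bp upstream of a SOCS2 start. Among the 4360 consensus peaks of 500 to 700 bp, 486 (11.1%) held a core and 2 held 3 or more. The range takes in the CISH peak of 612 bp and the SOCS2 peak of 524 bp. These are the 2 peaks with 3 or more, so the count is a description and no test. The PIM1 core lay 13.2 kb downstream of the start, between coding genes, and the 1 downstream of CISH lay 10.5 kb from its start. The other 2 matches were a core in a STAT3 exon, 25.5 kb from the start, and 1 in an intron of MAPKAPK3, 12.4 kb upstream of CISH. No core was found in the peaks at JAK2, SOCS1 or the start of PIM1.

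**Figure D1:**
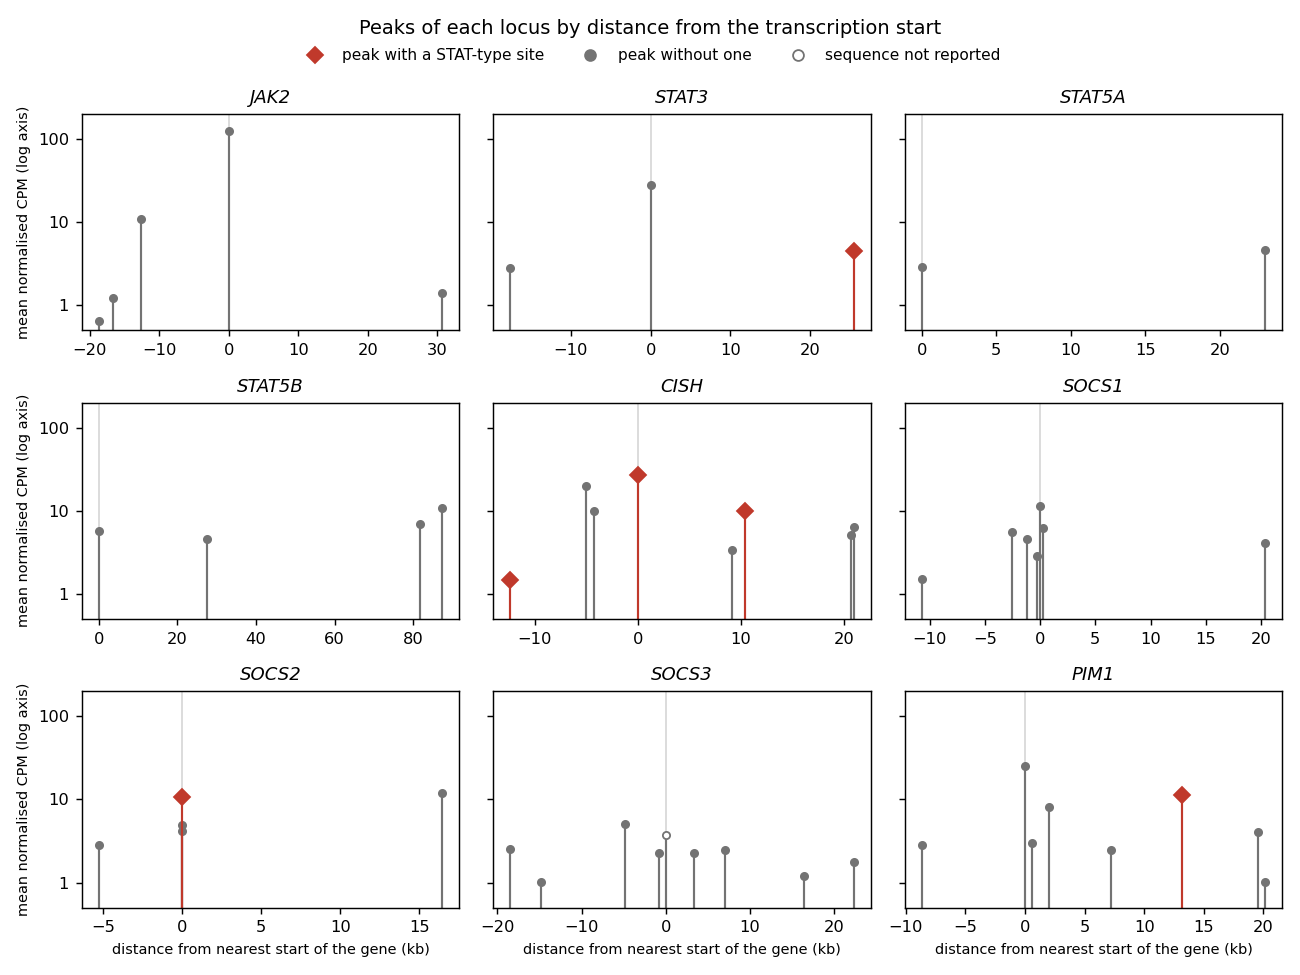
Peaks of the 9 loci by distance from the nearest transcription start of the gene (x axis, kb; negative is upstream) and mean normalised CPM over the 4 libraries (y axis, log scale), with red diamonds for peaks that hold the core filled grey circles for peaks without it and an open circle for the 1 peak whose letters are not described. Peaks shared by neighbouring STAT genes are drawn once, at the gene with the nearest start, and the JAK2 start peak, with a mean of 124 CPM, is the tallest of the 51.

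Depth was 3670758 and 4831164 counts with sgFLT3-DE-1, against 3321429 and 2683477 with sgNT, with a median of 12 and 17 counts per peak, against 10 and 9. Normalised CPM below are counts scaled to a common library size (CPM) after TMM scaling of the totals. The targeted enhancer, chr13:28842815-28843351, had 66.1 and 74.7 CPM with sgFLT3-DE-1, against 126 and 140 CPM with sgNT (log2 fold change -0.92, SE 0.264), 52.9% of the control level, and did not pass Benjamini-Hochberg adjustment in edgeR's quasi-likelihood test (adjusted p = 1.0). With the replicate number as a block it passed, at -0.92 (SE 0.120, adjusted p = 2.7e-10 by edgeR). Over the 82558 peaks with enough counts to test, 2 passed an FDR of 0.05 (0.00242%), and neither was at a member gene. Promoter peaks were found for 6 of 7 B cell precursor markers (all but CD79A), which summed to 82.2 and 120 CPM with sgFLT3-DE-1, against 104 and 135 CPM with sgNT, and for 2 of 6 T cell, 5 of 6 myeloid and 4 of 6 non-blood markers. Of 6 erythroid markers only HBB had one, at 573 and 239 CPM with sgFLT3-DE-1, against 60.8 and 45.2 CPM with sgNT, and its part in the results at the member genes was not tested. Pearson's r of log2 CPM across peaks was 0.875 within sgFLT3-DE-1 and 0.887 within sgNT, against 0.915 for the pair numbered 1 and 0.922 for the pair numbered 2.

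No peak at a JAK-STAT5 gene passed the test in either direction, at the pathway genes or at their outputs. Of the 51 peaks, 35 had enough counts to be tested and 0 passed an FDR of 0.05 by edgeR, against 0.00242% of all tested peaks. At an unadjusted p under 0.05 there were 2, both higher with sgFLT3-DE-1, where 0.827% of all tested peaks were higher and 1.07% lower at that level. The SOCS3 peak of these 2 passed the count filter only through its sgFLT3-DE-1 libraries. DESeq2 and limma-voom also called 0. In the edgeR fit without a block, the estimate lay within 1 standard error of no change for 18 of the 35 and within 2 for 33. Because ATAC-seq was done on bulk cells, fewer cells with an open site and less opening per cell cannot be told apart in any of these values.

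JAK2, the kinase that phosphorylates STAT5 beneath many cytokine receptors, had the most accessible promoter of the set. Its start peak, chr9:4984595-4985612 over an untranslated exon, had 133 and 117 CPM with sgFLT3-DE-1, against 130 and 116 CPM with sgNT. The guides overlapped, and libraries with the same number lay closer together than those with the same guide. The log2 fold change was 0.02 (SE 0.266, 95% interval -0.53 to 0.57). The peak's mean of 124 CPM was above 99.1% of the 21028 promoter peaks, and per kb of peak its 122 CPM was above 94.5% of them. The peak 12.7 kb upstream, the 1 other tested at JAK2, had 10.8 and 11.5 CPM with sgFLT3-DE-1, against 11.7 and 10.0 CPM with sgNT (log2 fold change 0.04, SE 0.327). The 3 remaining JAK2 peaks had at most 7 counts in any library and were not tested.

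STAT3, a STAT that answers mainly to IL-6 type cytokines, had a start peak, chr17:40540282-40540940, with 21.9 and 25.9 CPM with sgFLT3-DE-1, against 24.7 and 37.6 CPM with sgNT. The higher sgFLT3-DE-1 library exceeded the lower sgNT library, and the log2 fold change of -0.37 (SE 0.271) was the lowest of the 10 tested pathway peaks.

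STAT5A and STAT5B, the paired genes that encode the 2 STAT5 proteins, start from opposite strands within the same stretch of chromosome 17, next to STAT3. All 4 peaks of the STAT5A window are shared, 2 with STAT5B and 2 with STAT3. An inner start of STAT5B, chr17:40428145-40428612, had 6.18 and 7.08 CPM with sgFLT3-DE-1, against 6.02 and 3.60 CPM with sgNT. Both sgFLT3-DE-1 libraries exceeded both sgNT libraries there, by little for the libraries numbered 1 (log2 fold change 0.45, SE 0.427). It was the 1 tested pathway peak whose groups did not overlap. The peak between the outer starts of both genes, chr17:40440382-40440527, had too few counts to test, 8 and 24 with sgFLT3-DE-1, against 3 and 7 with sgNT. Both lay low among promoters, above 33.5% and 14.2% of promoter peaks in CPM. An intronic STAT5B peak 27.4 kb into the gene had 2.47 and 8.18 CPM with sgFLT3-DE-1, against 2.34 and 5.20 CPM with sgNT. Its log2 fold change was 0.59 (SE 0.532), the highest at the pathway genes. Library 2 stood above library 1 with both guides. The most accessible peak of the STAT5B window, over GHDC 87.4 kb from the start, had 7.72 and 14.6 CPM with sgFLT3-DE-1, against 7.35 and 14.0 CPM with sgNT (log2 fold change 0.11, SE 0.367), so the groups coincided library by library.

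**Figure D2:**
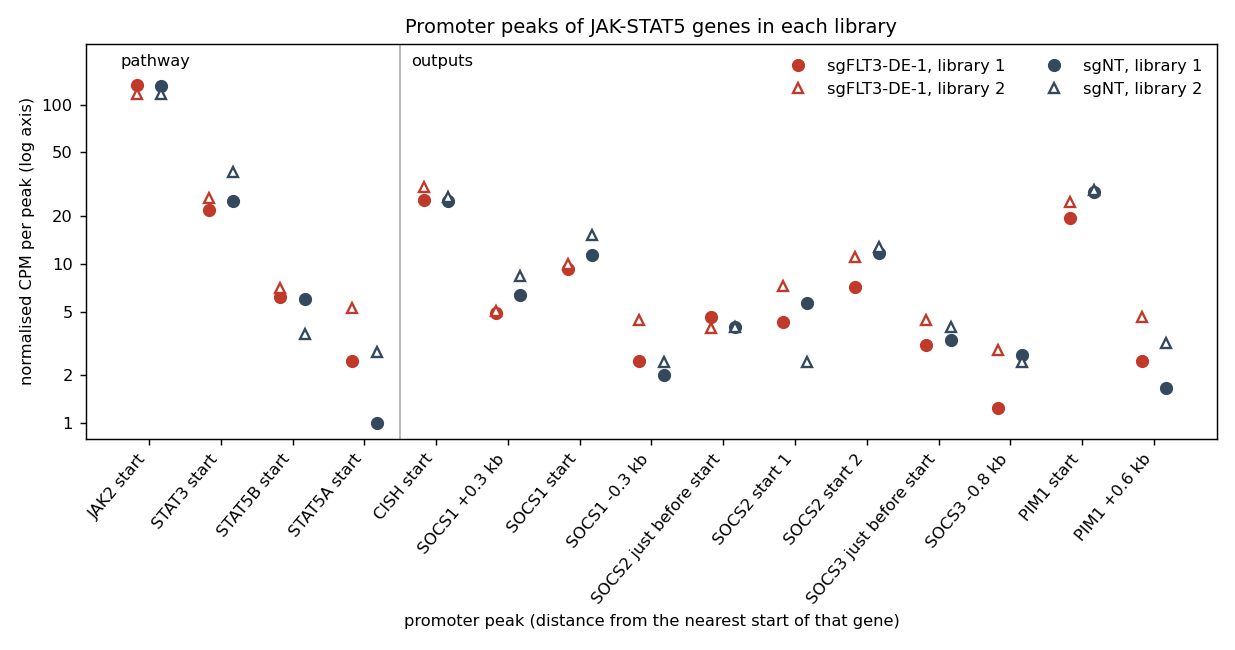
Normalised CPM (y axis, log scale) in each of the 4 libraries at the 15 promoter peaks of the members (x axis), with sgFLT3-DE-1 in red to the left of sgNT in dark blue, filled circles for library 1 and open triangles for library 2. JAK2 stands at 116 to 133 CPM in all 4 libraries, and the sgFLT3-DE-1 points at the start of PIM1 sit under the sgNT points.

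CISH, which encodes an SH2 protein that binds activated receptors and is among the most direct STAT5 outputs, had a start peak, chr3:50649140-50649751, with 25.0 and 30.5 CPM with sgFLT3-DE-1, against 24.7 and 26.4 CPM with sgNT. This is the peak with 4 cores, and its groups overlapped (log2 fold change 0.13, SE 0.262, 95% interval -0.41 to 0.66). The other 6 tested peaks of the window all had estimates below 0, from -0.65 to -0.26. The 1 with the smallest p, chr3:50654197-50654650, had 17.3 and 17.9 CPM with sgFLT3-DE-1, against 22.1 and 22.8 CPM with sgNT. Its groups did not overlap (log2 fold change -0.35, SE 0.273), and it is a promoter peak of MAPKAPK3, a kinase gene, rather than of CISH. The downstream peak that holds a core had 6.80 and 10.2 CPM with sgFLT3-DE-1, against 9.69 and 12.8 CPM with sgNT, which overlapped.

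SOCS1, which encodes an inhibitor of JAK kinases, had 3 promoter peaks within an intron of RMI2. The start peak, chr16:11349958-11350185, had 9.27 and 9.95 CPM with sgFLT3-DE-1, against 11.4 and 15.2 CPM with sgNT, and did not overlap (log2 fold change -0.45, SE 0.327). The peak 284 bp downstream, chr16:11349611-11349773, had 4.94 and 5.09 CPM with sgFLT3-DE-1, against 6.35 and 8.41 CPM with sgNT, and did not overlap either (log2 fold change -0.54, SE 0.409). Both values were lower with sgFLT3-DE-1, and neither passed the test. The peak 2.6 kb upstream went the other way, with 4.94 and 9.73 CPM with sgFLT3-DE-1, against 4.01 and 3.60 CPM with sgNT. It was 1 of the 2 member peaks with an unadjusted p under 0.05 (adjusted p = 1.0 by edgeR), with a log2 fold change of 0.97 (SE 0.451). Without library 2 of sgFLT3-DE-1 this came to 0.36 (SE 0.578), and without its library 1 to 1.34. The estimate was below 2 standard errors with DESeq2 (0.95, SE 0.669) and limma-voom (0.87, SE 0.486). It was above 2 with the replicate number as a block (0.92, SE 0.369) and with a correction for GC content (0.93, SE 0.431), without passing adjustment. The third promoter peak, 301 bp upstream, was not tested and had 8 and 20 counts with sgFLT3-DE-1, against 6 and 6 with sgNT. Peaks of 1 locus thus differed in sign.

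SOCS2, an inhibitor of growth hormone and cytokine receptor signalling and a known STAT5 target, had 3 promoter peaks that also differed in sign. The 1 with 3 cores, chr12:93964587-93965110, had 7.10 and 11.1 CPM with sgFLT3-DE-1, against 11.7 and 12.8 CPM with sgNT, without overlap (log2 fold change -0.40, SE 0.339). The neighbouring start peak, chr12:93964027-93964208, had 4.32 and 7.30 CPM with sgFLT3-DE-1, against 5.68 and 2.40 CPM with sgNT (log2 fold change 0.52, SE 0.475), and overlapped. A peak 11 bp upstream of another start had 4.63 and 3.98 CPM with sgFLT3-DE-1, against 4.01 and 4.004 CPM with sgNT (log2 fold change 0.09, SE 0.484). The most accessible SOCS2 peak, 16.4 kb downstream, had 9.58 and 14.4 CPM with sgFLT3-DE-1, against 10.4 and 13.2 CPM with sgNT (log2 fold change 0.05, SE 0.329), a difference far below the spread within each guide.

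SOCS3, which curbs STAT3 signalling by binding IL-6 type receptors, had little accessibility at its promoter. The start-proximal peak had 3.09 and 4.42 CPM with sgFLT3-DE-1, against 3.34 and 4.004 CPM with sgNT (log2 fold change 0.06, SE 0.510). The second promoter peak, 782 bp upstream, had 4 and 13 counts with sgFLT3-DE-1, against 8 and 6 with sgNT, too few to test. The highest peak, 4.9 kb upstream, had 5.56 and 6.41 CPM with sgFLT3-DE-1, against 4.68 and 3.60 CPM with sgNT, and did not overlap (log2 fold change 0.52, SE 0.444). A peak 3.4 kb downstream of the start, beyond the end of this short gene, was the second with an unadjusted p under 0.05 (adjusted p = 1.0 by edgeR). It rested on 11 and 16 counts with sgFLT3-DE-1, against 2 and 4 with sgNT. Scaled for depth, only the sgFLT3-DE-1 libraries reached the 10 counts that the filter asks for. The peak thus entered the test through the group where it is high. Its log2 fold change of 1.63 (SE 0.760) was the largest of the 35. This estimate was below 2 standard errors with DESeq2 (1.64, SE 1.03) and limma-voom (1.56, SE 1.16). It ran from 1.10 to 2.31 as each library was left out, each time below 2 standard errors. It was above 2 with the replicate number as a block (1.61, SE 0.632), with no filter (1.57, SE 0.684) and with a correction for GC content (1.61, SE 0.731), without passing adjustment.

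PIM1, a survival kinase gene and STAT5 target, had a start peak, chr6:37137469-37138038, with 19.5 and 24.5 CPM with sgFLT3-DE-1, against 28.1 and 29.2 CPM with sgNT. The groups did not overlap, but the log2 fold change of -0.37 (SE 0.264, 95% interval -0.91 to 0.17) did not pass. The intronic peak 2.0 kb into the gene had 4.63 and 7.52 CPM with sgFLT3-DE-1, against 7.69 and 12.8 CPM with sgNT (log2 fold change -0.71, SE 0.387), and had the smallest p of the locus. These groups did not overlap, although library 2 of sgFLT3-DE-1 came close to library 1 of sgNT. The second promoter peak, 608 bp downstream, had 2.47 and 4.64 CPM with sgFLT3-DE-1, against 1.67 and 3.20 CPM with sgNT (log2 fold change 0.61, SE 0.611), on at most 21 counts. The downstream peak with a core had 8.65 and 16.8 CPM with sgFLT3-DE-1, against 9.36 and 10.8 CPM with sgNT (log2 fold change 0.37, SE 0.348), and its spread within sgFLT3-DE-1 exceeded the difference between guides. The lowest estimate of all 35 was at a peak 19.5 kb downstream, -0.85 (SE 0.497), from 7 and 16 counts with sgFLT3-DE-1, against 15 and 14 with sgNT. In CPM this peak had 2.16 and 3.54 with sgFLT3-DE-1, against 5.01 and 5.61 with sgNT, and the groups did not overlap.

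**Figure D3:**
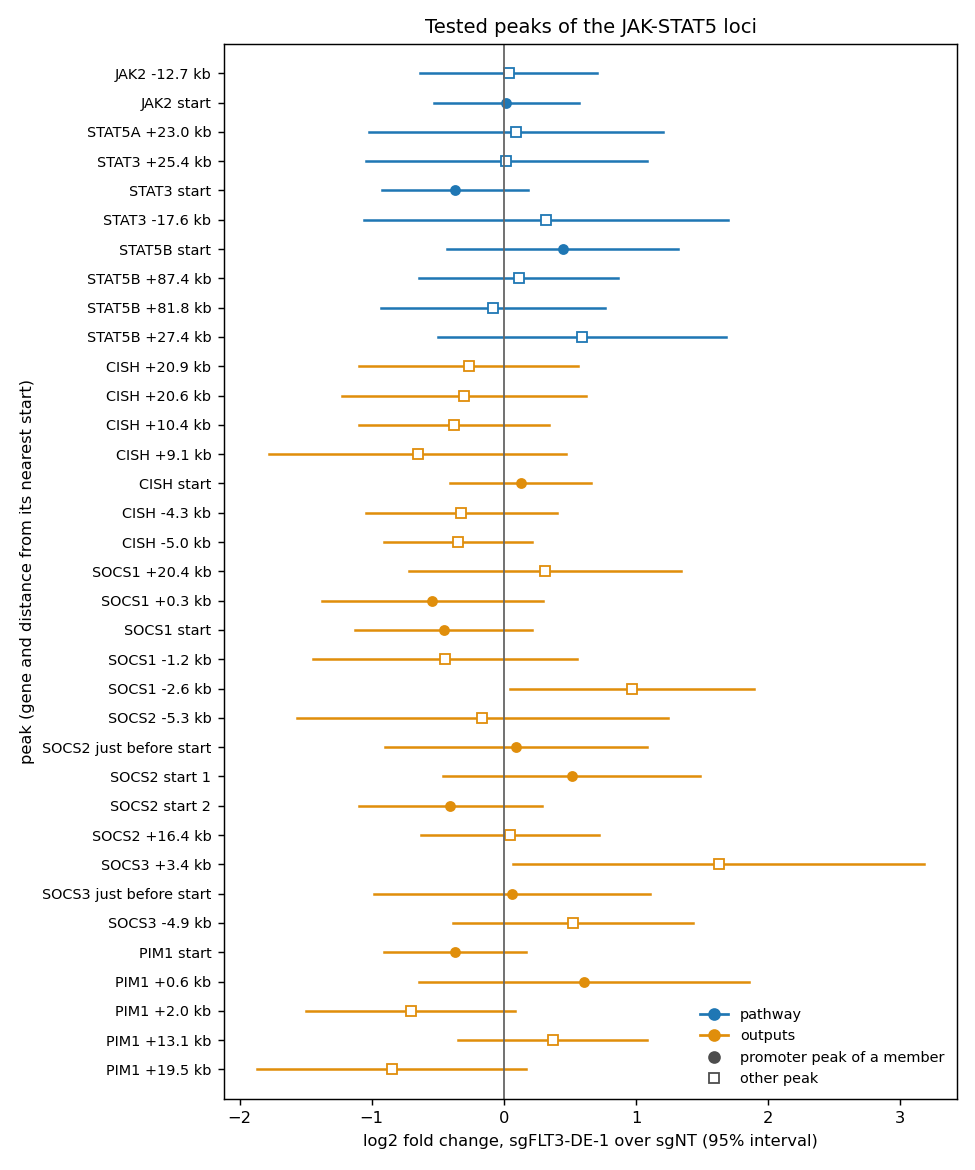
Log2 fold change of sgFLT3-DE-1 over sgNT (x axis) with its 95% interval for the 35 tested peaks (y axis), pathway genes in blue and output genes in orange, filled circles for promoter peaks of a member and open squares for the others. All but 2 intervals, those of the SOCS1 peak 2.6 kb upstream and the SOCS3 peak 3.4 kb downstream, include 0.

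Pathway and output peaks were then set side by side. The 10 tested pathway peaks had a median log2 fold change of 0.07 (range -0.37 to 0.59), with 2 below 0 and 8 above. The 25 tested output peaks had a median of -0.26 (range -0.85 to 1.63), with 14 below 0 and 11 above, and the median over all 82558 tested peaks was 0.01, with 48.1% below 0. The output median was 0.06 over the 9 tested promoter peaks of the output genes alone and 0.05 with windows of 50 kb, so its sign depended on which peaks were counted. Leaving out 1 library moved the pathway median between -0.47 and 0.55 and the output median between -0.51 and -0.01. Without library 2 of sgFLT3-DE-1 the medians were -0.47 and -0.51, without its library 1 they were 0.48 and -0.01, without library 1 of sgNT -0.15 and -0.13, and without library 2 of sgNT 0.55 and -0.13.

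Counts of peaks whose groups did not overlap were read against the same share over the table. Among tested output peaks 8 of 25 were lower in both sgFLT3-DE-1 libraries (32.0%), against 13.8% of all tested peaks, and 3 were higher, against 13.7%. The SOCS3 peak 3.4 kb downstream, among these 3, passed the count filter only through its sgFLT3-DE-1 libraries. Of the 9 tested promoter peaks of output genes, 4 were lower and 0 higher. Over all tested promoter peaks 23.3% were lower in this sense and 7.70% higher. The other 4 of the 8 lower output peaks included a promoter peak of MAPKAPK3. Of the 23 tested peaks of pathway and output genes that are not member promoters, 4 were lower and 3 higher. Over all tested peaks, promoters included, the shares were 13.8% and 13.7%. Among tested pathway peaks 0 of 10 were lower and 1 was higher. Including the 16 peaks below the filter, where 1 was lower and 6 higher, the members had 9 lower and 10 higher of 51, against 13.3% lower and 19.5% higher among all consensus peaks. Peaks of 1 locus are not independent of one another, and the 8 lower peaks came from 4 loci.

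Summing all peaks of a window gave 1 value per gene with more counts behind it. Among 17251 coding loci tested in the same way, 0 passed an FDR of 0.05 by edgeR (0%), 80 had an unadjusted p under 0.05 (0.464%), and DESeq2 called 2. Of the 9 member loci 0 passed by either tool, and 0 had an unadjusted p under 0.05. In all 9 the groups overlapped, where 13.1% of all loci were lower and 6.39% higher without overlap. JAK2 had 148 and 133 summed CPM with sgFLT3-DE-1, against 144 and 127 with sgNT (log2 fold change 0.04, SE 0.191, 95% interval -0.38 to 0.47). STAT5A had 12.7 and 26.3 summed CPM with sgFLT3-DE-1, against 12.4 and 19.6 with sgNT (log2 fold change 0.31, SE 0.423). The STAT5B window, which shares 2 peaks with it, had 24.4 and 42.7 summed CPM with sgFLT3-DE-1, against 21.4 and 35.2 with sgNT (log2 fold change 0.26, SE 0.370). These STAT5 sums varied more between libraries of 1 guide than between guides. STAT3 had 26.9 and 44.9 summed CPM with sgFLT3-DE-1, against 32.1 and 54.1 with sgNT (log2 fold change -0.25, SE 0.349).

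Of the output loci, CISH had 67.3 and 86.7 summed CPM with sgFLT3-DE-1, against 85.9 and 92.1 with sgNT (log2 fold change -0.20, SE 0.224, 95% interval -0.70 to 0.29). PIM1 had 41.7 and 67.0 summed CPM with sgFLT3-DE-1, against 56.1 and 68.5 with sgNT (log2 fold change -0.19, SE 0.282). For both, library 2 of sgFLT3-DE-1 reached the sgNT range and library 1 lay below it. SOCS3 had 20.1 and 28.5 summed CPM with sgFLT3-DE-1, against 18.0 and 22.8 with sgNT (log2 fold change 0.26, SE 0.332). SOCS1 and SOCS2 had log2 fold changes of -0.04 (SE 0.300) and -0.05 (SE 0.300), and their 95% intervals ran from -0.71 to 0.63 and from -0.72 to 0.62. The median over all tested loci was -0.05. The 9 intervals leave room for changes in either direction. In simulated data the locus test called 2% of 1.5-fold, 44% of 2-fold and 98% of 4-fold changes. It also called 12 loci simulated without a change. The simulated libraries held no effect of the library number, unlike these data.

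**Figure D4:**
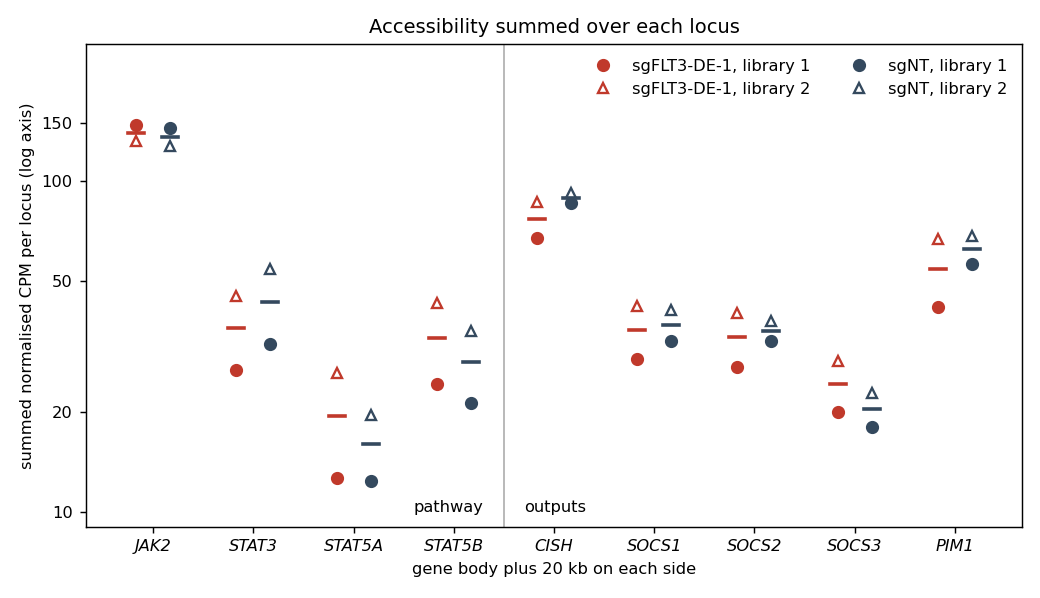
Summed normalised CPM (y axis, log scale) over the gene body plus 20 kb at the 9 member loci (x axis), with sgFLT3-DE-1 in red to the left of sgNT in dark blue, filled circles for library 1, open triangles for library 2 and bars for the mean of 2 libraries. At every locus except JAK2 the triangle lies above the circle with both guides, and the groups overlap at all 9.

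The libraries differed by number more plainly than by guide. At 8 of the 9 loci library 2 was above library 1 with both guides, against 57.1% of all tested loci, and JAK2 was the exception, at 0.897 times library 1 with sgFLT3-DE-1 and 0.882 times with sgNT. Library 2 exceeded library 1 at STAT3 1.67 times with sgFLT3-DE-1, against 1.68 times with sgNT, and at PIM1 1.61 times with sgFLT3-DE-1, against 1.22 times with sgNT. For the STAT5 genes the same ratios were 2.08 against 1.59 at STAT5A and 1.75 against 1.65 at STAT5B, sgFLT3-DE-1 against sgNT. Among single tested member peaks library 2 was above library 1 with both guides in 26 of 35, against 33.1% of all tested peaks. The labels call the number a replicate and do not say whether it marks something shared by both guides. The part of the number in the results was not tested beyond the fits that include it.

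The surrounding pathway was covered by 42 further genes, of which 38 had loci to test. None passed an FDR of 0.05 in either direction by edgeR, and 0 had an unadjusted p under 0.05, while 28 estimates were below 0 (73.7%, against 60.9% of all tested loci) and 10 above, with a median of -0.11 against -0.05 over all loci. In 8 of the 38 both sgFLT3-DE-1 libraries lay below both sgNT libraries (21.1%, against 13.1% of all loci), and in 3 above (7.89%, against 6.39%). Of the other Janus kinases, JAK1 stood at 0.12 (SE 0.185). JAK3, the partner of the common gamma chain, had the lowest estimate, with 17.9 and 37.6 summed CPM with sgFLT3-DE-1, against 31.8 and 46.4 with sgNT (log2 fold change -0.47, SE 0.381), and TYK2, the interferon receptor kinase, followed after the cell cycle inhibitor CDKN1A (-0.38), at -0.37 (SE 0.285). The TYK2 groups did not overlap, with 29.0 and 42.2 summed CPM with sgFLT3-DE-1, against 43.1 and 49.6 with sgNT. PIM3, the third PIM kinase gene, had 25.0 and 31.2 summed CPM with sgFLT3-DE-1, against 36.8 and 34.4 with sgNT (log2 fold change -0.34, SE 0.287), also without overlap. The highest estimates were those of CSF2RB, the shared receptor chain of IL-3, IL-5 and GM-CSF, at 0.43 (SE 0.534), OSM at 0.28, the receptor KIT at 0.20 and the inhibitor PIAS2 at 0.13, of which only KIT did not overlap. By role, the median was -0.37 for 3 kinases, -0.05 for 4 STATs, -0.10 for 8 receptors, -0.20 for 13 inhibitors and -0.08 for 10 outputs. FLT3 itself had 338 and 390 summed CPM with sgFLT3-DE-1, against 356 and 426 with sgNT (log2 fold change -0.10, SE 0.201), which overlapped.

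The window edge of 20 kb fell between sparse peaks. The last peak inside it, 19.0 kb from SOCS3, had 2 and 9 counts with sgFLT3-DE-1, against 4 and 8 with sgNT. The first outside, 20.5 kb from SOCS2, had 8 and 11 counts with sgFLT3-DE-1, against 4 and 6 with sgNT.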

How the data were processed

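ATAC-seq libraries of SEM cells were grouped by the guide in the labels, 2 per guide. The authors deposited raw counts per consensus peak, with a list of the same 139872 regions. The extract protocol names cutadapt 1.18 and Bowtie2 2.2.9 on hg19, whereas among tools the submitters' processing notes give Trim Galore 0.4.4, MACS2 2.1.1.20160309, SAMtools 1.2, bedtools 2.24.0 and the aligner BWA. The fragments counted, and any shift of reads for the transposase, are not given in the sources used here. Peaks were called in the libraries compared, so a peak open with either guide could enter the list.

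The quasi-likelihood test of edgeR 4.0.16 (R 4.3.3) was run after TMM scaling and the default filterByExpr filter (10 counts, 15 in total), with no term but the guide. P-values were adjusted by Benjamini and Hochberg's method over 82558 peaks, and separately over 17251 coding loci (peaks summed over the gene body plus 20 kb). Between replicates, chi-square per degree of freedom came to 2.89 (sgFLT3-DE-1) and 1.64 (sgNT), above counting error. In simulated counts for the 82558 peaks, the test called 0% of 1.5-fold, 14% of 2-fold and 64% of 4-fold changes. It also called 8 peaks simulated without a change. The simulation held no effect of the library number. An exact permutation test of 2 against 2 libraries cannot give a p below 0.33.

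Annotation was GENCODE 44 lifted to GRCh37, and a promoter peak is 1 within 1 kb of a coding start. Named were, per gene, the summed locus, its promoter peaks, the peak of highest CPM and that of smallest p, the 2 peaks at the window edge and the 4 highest and 4 lowest further pathway loci. Other values of single peaks (the lowest estimate of all, the CISH, SOCS2 and PIM1 peaks with the core, the FLT3, kinase and role medians) were chosen after they were seen. The sequence of 1 member peak is not reported here. The members and lists were chosen with earlier results of these data known. Alternatives were other scaling factors, filters, tools (DESeq2 1.42.0, limma-voom 3.58.1), windows, a GC correction, the replicate number as a block, and leaving out each library.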

Additional observations from a re-analysis of the deposited data

How the results depend on the processing

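The count of 0 member peaks and 0 member loci past an FDR of 0.05 was the same under every alternative run. Over all peaks the count of 2 became 1 with total counts only, DESeq2 or the GC correction, 6 with loess offsets over mean count, 5 with no filter, 0 at a mean count of at least 50 (where 5 member peaks were left to test), and ran from 0 to 9 without 1 library. The target passed with loess offsets (log2 fold change -0.87, adjusted p = 0.0363 by edgeR). With the replicate number as a block edgeR called 74 peaks (17 higher, 57 lower), 20 when the GC correction was added, and 327 loci. The target then passed at -0.92, and at -0.99 with both, and still no member was called. In the fit with the block and no GC correction some named peaks lay beyond 2 standard errors, with adjusted p from 0.42 to 0.55 by edgeR. These were the start peaks of PIM1 (-0.38, SE 0.179) and STAT3 (-0.38, SE 0.174) and the PIM1 peak 2.0 kb downstream (-0.75, SE 0.302). The others were the SOCS1 peak 2.6 kb upstream (0.92, SE 0.369) and the SOCS3 peak 3.4 kb downstream (1.61, SE 0.632). These SOCS1 and SOCS3 peaks were already beyond 2 standard errors without a block. The PIM1 peak 2.0 kb downstream was so with the GC correction alone (-0.74, SE 0.366). With block and GC correction together, the PIM1 and STAT3 start peaks came to -0.22 (SE 0.176) and -0.28 (SE 0.172), within 2 standard errors. The PIM1 peak 2.0 kb downstream (-0.79, SE 0.295) stayed beyond 2. So did the SOCS1 peak 2.6 kb upstream (0.89, SE 0.367) and the SOCS3 peak 3.4 kb downstream (1.59, SE 0.624), without passing adjustment. The pairing rests on 2 replicate numbers, which the labels do not say are shared between the guides. Deviations from the group means correlated at 0.397 within the numbers.

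The output median moved to -0.011 with no filter, 0.050 with windows of 50 kb and 0.065 with promoter peaks only, and the pathway median turned from 0.065 to -0.14 at a mean count of at least 50. Signs turned as follows, always within 1 standard error of 0. With loess offsets the SOCS1 locus came to 0.054 and SOCS2 to 0.038, with DESeq2 to 0.033 and 0.021, and with windows of 50 kb to 0.098 and 0.011. The CISH locus came to 0.12 over the gene body alone. With no filter the JAK2 peak 12.7 kb upstream came to -0.024, the JAK2 start peak to -0.043 and the SOCS2 peak 16.4 kb downstream to -0.011, and the first of these to -0.0087 with the GC correction and -0.0061 with block and GC correction together. The other 270 of 282 such values kept their sign. The median over all tested loci also moved, from -0.049 to 0.014 with loess offsets and to 0.033 with DESeq2. With no filter the target peak moved from -0.92 to -0.98 and the STAT3 start peak from -0.37 to -0.43. The cause of the turned signs was not tested.

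Leaving out each library in turn turned the sign of 16 of 30 named values. The pathway median then ran from -0.47 to 0.55 and the output median from -0.51 to -0.0098. The loci ran from -0.042 to 0.14 (JAK2), -0.67 to 0.17 (STAT3), -0.32 to 0.73 (STAT5A), -0.20 to 0.66 (STAT5B), -0.34 to 0.20 (SOCS1), -0.35 to 0.19 (SOCS2), -0.020 to 0.49 (SOCS3) and -0.58 to 0.11 (PIM1). Start peaks ran from -0.072 to 0.11 (JAK2), -0.037 to 0.26 (CISH), -0.0098 to 0.20 (SOCS2, 11 bp upstream) and -0.25 to 0.27 (SOCS3), and other peaks from -0.072 to 0.16 (JAK2, 12.7 kb), -0.45 to 0.62 (STAT5B, 87.4 kb), -0.57 to 1.23 (STAT5B, 27.4 kb) and -0.30 to 0.30 (SOCS2, 16.4 kb). The lone library of a guide was then assumed to vary like the other guide. The start peaks of STAT3 (-0.65 to -0.051), STAT5B (0.14 to 0.88), SOCS1 (-0.66 to -0.24) and PIM1 (-0.56 to -0.22) kept their sign but not their size, and the SOCS1 peak 2.6 kb upstream ran from 0.36 to 1.34.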

Other observations

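A pair of cores whose first bases lie 11 bases apart was noticed in the sequences of both the CISH and the SOCS2 promoter peaks. A search of the 139872 consensus peaks for pairs at that spacing found 2 peaks, and these were the ones. The spacing was chosen after the sequences had been seen, so the count is a description and no test. Their log2 fold changes were 0.13 (SE 0.262) at CISH and -0.40 (SE 0.339) at SOCS2, and neither passed the test.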
